A study of Caenorhabditis elegans with 6 samples.

Results

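The gene tct-1 (WBGene00009122) encodes the Caenorhabditis elegans homolog of translationally controlled tumor protein, usually called TCTP. It was taken as the 1 row with the symbol tct-1 among the 46748 gene rows of each count file. The row was found by its name, but the gene was chosen with earlier results of these data known. The anchor cell is a specialized uterine cell that invades through basement membrane into the vulval epithelium. Libraries of anchor cells (n = 3) were compared with libraries of whole-body cells (n = 3). Both groups were wild type, came from mid-L3 larvae at the P6.p 2-cell stage grown at 20 °C, and were freed by 15 mg/mL pronase E and a 5 μm filter. The labels do not say how anchor cells were separated, nor whether the 3 libraries of a group came from separate cultures, so p-values measure only the spread between these samples.

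TCTP is a small, conserved and abundant cytosolic protein. In vertebrates its mRNA starts with the pyrimidine tract that ribosomal protein and elongation factor mRNAs also carry, which puts their translation under control of the TOR kinase. Fly Tctp binds the TOR activator Rheb and works with 14-3-3 adaptor proteins in growth. Mammalian TCTP binds tubulin and elongation factor 1, is a substrate of Polo-like kinase, and restrains cell death, in part against p53. These roles set the groups of genes that tct-1 is placed beside here.

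In the annotation of build WBcel235, tct-1 lies on the plus strand of chromosome I, from 10569112 to 10569983. It has 1 transcript of 2 exons, at 10569112 to 10569161 and 10569417 to 10569983, around an intron of 255 bases. The 617 exon bases comprise a 5′ UTR of 22, coding sequence of 543 for 181 amino acids, and a 3′ UTR of 49 after the stop codon. That locus is crowded, which bears on every value below. One transcript of the next gene, F25H2.12, opens with an exon on the same strand that covers all 567 bases of the second tct-1 exon, 91.9% of its exon bases. The noncoding RNA F25H2.16, on the other strand, covers the 50 bases of the first exon. All 617 exon bases therefore also lie in an exon of another gene in that annotation, and a small nucleolar RNA, F25H2.14, fills most of the intron.

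**Figure D1:**
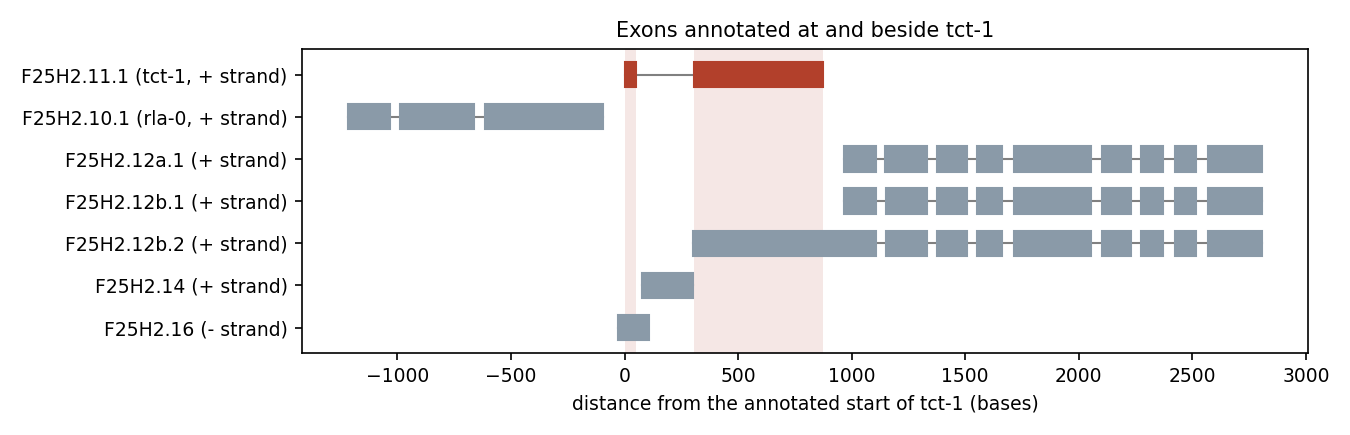
Exons of tct-1 and of the annotated genes within 500 bases of it, 1 row per transcript, against the distance in bases from the start of tct-1. Boxes are exons, grey lines are introns, and the shaded bands carry the extent of the 2 tct-1 exons down through the other rows, where F25H2.12b.2 spans the second and F25H2.16 the first.

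Reads that fall on more than 1 gene are set aside as ambiguous by HTSeq in its usual setting. The sources used here give neither annotation release nor strand setting, so the share of tct-1 reads that were set aside is unknown and was not tested. Ambiguous reads numbered 197434, 91561 and 116629 over all genes in the anchor cell libraries, against 126123, 189291 and 72190 in those of whole-body cells; per-library values run from replicate 1 to replicate 3 throughout. F25H2.12 itself held 83, 4 and 0 counts in the anchor cell libraries and 100, 88 and 8 in the whole-body libraries. The snoRNA had 0 counts in each anchor cell library and 15, 33 and 6 in the whole-body libraries. Reads kept under the name tct-1 thus far outnumbered those kept under the names of the genes on top of it.

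The counts of tct-1 were 11100, 31088 and 49199 for anchor cells, against 13175, 23774 and 9184 for whole-body cells. With 23279623 to 37501816 gene counts per library, the counting error is small. In anchor cell replicate 3, tct-1 made up 0.160% of gene counts, with a 95% Wilson interval of 0.158% to 0.161%. In anchor cell replicate 1 it made up 0.0392%, with an interval of 0.0385% to 0.0399%. The cDNA was amplified and carried no molecular identifiers, so these intervals cover counting error only.

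Scaled between libraries by TMM, which sets most genes to a common level, tct-1 stood at 442, 1590 and 2369 CPM in anchor cells. The whole-body libraries had 319, 383 and 325 CPM. Replicates 2 and 3 of the anchor cells lay far above all whole-body libraries, and replicate 1 lay just above them, so the groups did not overlap. Anchor cells averaged 1467 ± 970 CPM, against 342 ± 35.2 CPM for whole-body cells (SD over 3 libraries). The coefficient of variation was 66.1% in anchor cells and 10.3% in whole-body cells. From high to low, the order was anchor cell replicates 3, 2 and 1, then the whole-body libraries, which differed among themselves by less than anchor cell replicate 1 did from their mean.

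tct-1 was 4.29-fold higher in anchor cells by the group means, a log2 fold change of 2.10 ± 0.56 (SE). It did not pass the test over all genes (edgeR quasi-likelihood test, Benjamini-Hochberg adjusted p = 0.0682, threshold 0.05). On simulated counts this test recovered 5.36% of tested genes changed 4-fold, so not passing does not show that a change is absent. Those genes were drawn at random from all levels, so the recovery at the level of tct-1 is not known. Of 11955 genes tested, 3.05% passed in either direction and 2.01% were called higher in anchor cells. Without overlap between groups, 2772 genes were lower and 12.4% were higher in all anchor cell libraries, and tct-1 is among the higher ones. Its p ranked 662 of 11955. Set against the whole-body mean, the anchor cell libraries differed by 0.37, 2.22 and 2.80 on the log2 scale.

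Whether tct-1 passed depended on anchor cell replicate 1, and also on the filter and the model. Without that replicate, the log2 fold change of tct-1 was 2.54 ± 0.28 and the edgeR adjusted p was 0.00470. Leaving out any other library gave 1.57 to 2.17, with edgeR adjusted p values of 0.123 to 0.209. Across all 17 alternatives the log2 fold change stayed above 0, from 1.15 with libraries scaled by their totals alone to 2.54, and 4 passed the threshold. With all 6 libraries kept, 3 of these were the fits with no filter, with sample weights in limma voom, and with the replicate number as a term. With library totals alone the groups overlapped, at 392, 1123 and 1597 CPM in anchor cells and 372, 634 and 395 CPM in whole-body cells. The middle of the 11955 log2 fold changes was -0.12 with TMM and -0.94 with library totals, so tct-1 lay 2.22 and 2.09 above the middle gene under these scalings.

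**Figure D2:**
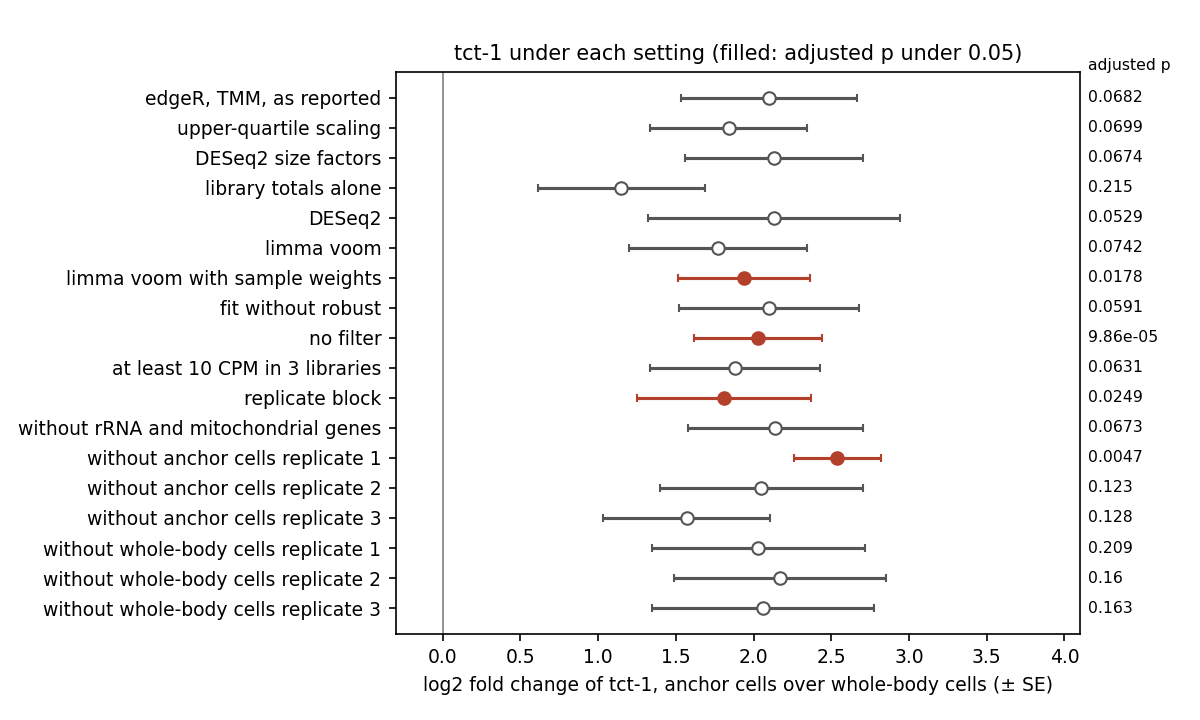
Log2 fold change of tct-1 (x axis, anchor cells over whole-body cells, with SE) under each setting (rows), with the adjusted p at the right. Filled points passed the threshold of 0.05, and all 18 points lie above 0.

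The anchor cell library with the least tct-1 stood apart in other measures too. Replicate 1 had 27.8% of its gene counts on mitochondrially encoded genes other than rRNA, where the other anchor cell libraries had 7.76% and 8.36% and whole-body libraries 1.07% to 1.59%. It had counts on 16990 genes, where the other anchor cell libraries had 11508 and 11073 and whole-body libraries 17185 to 22216. Of 10 anchor cell markers, 7 rose, with a median log2 fold change of 3.25. Their summed level was 1434, 3244 and 2676 CPM in anchor cells, against 402 to 647 CPM in whole-body cells. The part of these differences in the low tct-1 of replicate 1 was not tested.

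Markers of other cell types were measured beside tct-1 for the same reason. The 8 muscle markers summed to 4948 to 7321 CPM in anchor cells and 11865 to 17131 CPM in whole-body cells, and 2 fell. The 7 neuron markers summed to 1180 to 3073 CPM in anchor cells and 203 to 278 CPM in whole-body cells, and unc-119 alone passed. Most of that sum was unc-119, with 506, 2604 and 2123 CPM in anchor cells and 4.50, 3.57 and 1.84 CPM in whole-body cells; the other 6 had log2 fold changes of 0.51 to 1.78. Germ line markers summed to 442 to 1307 CPM in anchor cells and 748 to 825 CPM in whole-body cells, and most of it was cgh-1 and nos-3. None of the 7 passed with edgeR, but their median log2 fold change was -2.46. DESeq2 called 4 falls among them, where it gave 1580 falls over 26299 genes. Of the 7 germ line markers, 5 had a log2 fold change below 0, while cgh-1 at 0.45 and nos-3 at 0.34 lay above it. The groups overlapped for glp-1, at -0.95. The genes glh-1, pgl-1, pgl-3 and mex-5 were lower in every anchor cell library, as were 2772 of the 11955 tested genes. mex-5 had 1.99, 0 and 0.193 CPM in anchor cells and 33.4, 25.8 and 47.4 CPM in whole-body cells. Intestinal markers gave 111 to 547 and 493 to 947 CPM in anchor and whole-body cells, and epidermal ones 100.2 to 317 and 137 to 188 CPM. Among the epidermal markers grd-10 fell, to 4.02, 10.2 and 4.14 CPM in anchor cells, against 77.9, 32.8 and 73.3 CPM in whole-body cells, and elt-1 was lower without overlap. rol-6 went the other way without passing, at 19.6, 90.04 and 158 CPM in anchor cells and 10.2, 28.2 and 5.41 CPM in whole-body cells. Markers of other somatic gonad cells gave 156 to 338 CPM in anchor cells and 112 to 124 CPM in whole-body cells, with cog-1 past the threshold. Of the 5 tested, 2 had a log2 fold change above 0 and 3 below, with a median of -0.10. Among them lim-7 was lower without overlap, at 0.597, 0.512 and 0.0963 CPM in anchor cells and 4.58, 6.44 and 3.92 CPM in whole-body cells. Coelomocyte markers gave 0.0963 to 10.6 CPM in anchor cells and 6.21 to 20.9 CPM in whole-body cells. The part of other cell types in the tct-1 level was not tested. In RNA from many cells, fewer cells of a type and less RNA per cell cannot be told apart.

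Measures taken within a library need no scaling between libraries. Several put tct-1 higher in anchor cells without overlap, while its share of all gene counts and its median ratio to single ribosomal protein genes overlapped. Counted over nuclear protein-coding genes alone, it came to 1217, 3411 and 3893 CPM of that class in anchor cells, against 956, 1043 and 998 in whole-body cells. The means were 2840 ± 1426 and 999 ± 43.5 in anchor and whole-body cells (SD, n = 3 each; two-sided exact permutation p = 0.1, the smallest that 3 against 3 libraries allow). The whole-body libraries were close to each other on this scale, and anchor cell replicate 1 was again the lowest of its group.

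Against the ribosomal protein genes, the anchor cell libraries came together. For each 1000 counts on 79 cytosolic ribosomal protein genes there were 53.6, 50.2 and 61.9 counts on tct-1 in anchor cells. The whole-body libraries had 25.1, 30.3 and 20.1. Anchor cell replicate 1, low on the other scales, here lay between the other anchor cell libraries. The means were 55.2 ± 6.03 in anchor cells and 25.2 ± 5.12 in whole-body cells, a 2.20-fold difference (SD, n = 3 each; two-sided exact permutation p = 0.1, again the smallest possible). Ribosomal protein genes took 2.27%, 6.80% and 6.29% of nuclear protein-coding counts in anchor cells, against 3.82%, 3.44% and 4.97% in whole-body cells. The sum rests on the genes with the most counts. When tct-1 was set against each ribosomal protein gene in turn, the median ratio was 8.51, 13.8 and 17.2 in anchor cells and 8.79, 12.4 and 4.99 in whole-body cells, and the groups overlapped (two-sided exact permutation p = 0.3). Per 1000 counts on the 6 genes of elongation factors 1 and 2, tct-1 had 111, 169 and 188 counts in anchor cells and 71.9, 85.6 and 70.1 in whole-body cells, without overlap (two-sided exact permutation p = 0.1).

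**Figure D3:**
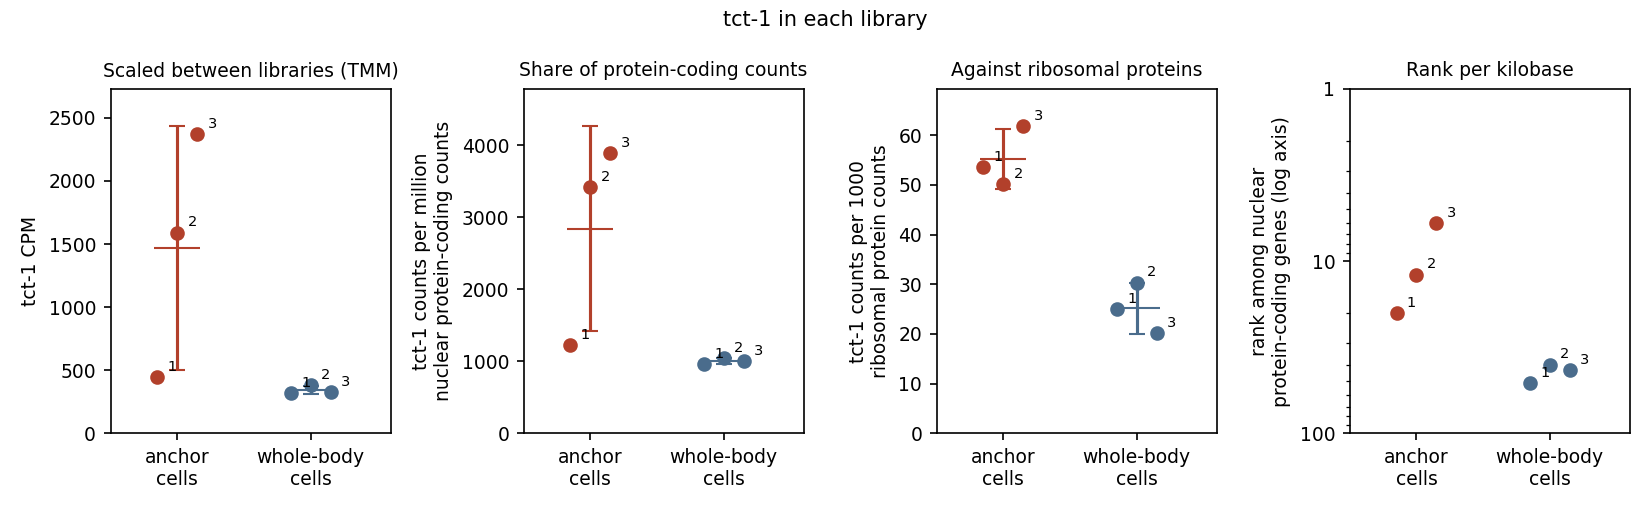
tct-1 in each library (points, numbered by replicate) in anchor cells and whole-body cells: TMM-scaled CPM, CPM over nuclear protein-coding genes, counts per 1000 ribosomal protein counts, and rank by counts per kilobase on a log axis with rank 1 at the top. Horizontal marks and bars are mean ± SD of 3 libraries. Anchor cell replicate 1 lies close to the whole-body libraries in the first 2 panels and with the other anchor cell libraries, at 53.6, in the third.

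By counts per kilobase of exon, tct-1 was among the most abundant nuclear protein-coding transcripts of every library. It ranked 20, 12 and 6 in anchor cells, of 13835, 10470 and 10120 genes with counts. In whole-body cells it ranked 51, 40 and 43, of 15429, 15863 and 13976. Each anchor cell library ranked it higher than each whole-body library. In TPM computed over nuclear protein-coding genes, tct-1 had 3698, 7839 and 8772 in the anchor cell libraries and 2857, 3028 and 2826 in the whole-body libraries. The means were 6770 ± 2701 and 2903 ± 109 in anchor and whole-body cells (SD, n = 3 each).

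The genes around it in that order give the level a scale. By the anchor cell mean, tct-1 stood at place 9. Directly above it were the high mobility group gene hmg-1.1 at 8124 ± 5192, the recycling endosome GTPase gene rab-11.1 at 7485 ± 1055, and the histone gene his-41 at 7283 ± 2566 TPM. Directly below were the ribosomal protein gene rps-15 at 6719 ± 3541, the elongation factor gene eef-1A.2 at 6629 ± 717, and icd-1, a subunit gene of the nascent polypeptide-associated complex, at 6270 ± 3619 (SD, n = 3 each). None of these 6 means lay further from that of tct-1 than the SD of tct-1. Histone and elongation factor 1 genes have near-identical copies, which leaves his-41 and eef-1A.2 uncertain.

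In whole-body cells tct-1 held place 48 by the mean. Its upper neighbours were trap-1, for a subunit of the translocon-associated complex, at 2980 ± 861, sqd-1, for an RNA-binding protein, at 2934 ± 356, and inf-1, for initiation factor 4A, at 2928 ± 366 TPM. Its lower neighbours were vdac-1, for the porin of the mitochondrial outer membrane, at 2898 ± 287, vig-1, for an RNA-binding protein, at 2802 ± 209, and rps-6 at 2583 ± 1072 (SD, n = 3 each). Of these 6 means, 5 lay within the SD of tct-1, 109, and rps-6 lay within its own SD of tct-1.

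Genes that share the known partners or controls of TCTP were lists chosen by role. Cytosolic ribosomal proteins build the ribosome. None of 78 tested members passed, although 77 had a log2 fold change above 0 and the median was 1.16, against -0.12 over all tested genes. With library totals alone these medians were 0.31 and -0.94. Before adjustment, 29 were higher and 1 lower at p under 0.05. How many of all tested genes met this limit was not counted, here or for the lists below. Numbers at that limit therefore stand without a background. The number of rises was 3 by DESeq2, 5 by limma voom and 14 with sample weights added to voom. Over all tested genes, these fits gave 798 rises of 26299, 412 of 11955 and 635 of 11955. The fold change of tct-1 was larger than that of all but 2 of the 78. Those 2 were rpl-39, at 32.1, 9.05 and 9.97 CPM in anchor cells and 2.30, 1.74 and 4.70 CPM in whole-body cells, and rpl-37, which differed by 2.41 ± 0.74 (SE; edgeR adjusted p = 0.0806). They were named after their values were seen. By anchor cell replicate the median of the list against the whole-body mean was 0.012, 1.34 and 1.71, where tct-1 had 0.37, 2.22 and 2.80. Without anchor cell replicate 1, 41 members rose. In that fit 966 of 13270 tested genes rose and 1156 fell. The large subunit gene rpl-3 stood for the abundant members, at 680, 3378 and 3517 CPM in anchor cells and 1784, 1963 and 2097 CPM in whole-body cells (edgeR adjusted p = 0.743). Its replicate 1 lay below the whole-body libraries, and the groups overlapped. The next most abundant, rpl-18, had 441, 3995 and 4923 CPM in anchor cells and 1083, 1113 and 872 CPM in whole-body cells (edgeR adjusted p = 0.192).

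Elongation factor 1 brings aminoacyl-tRNA to the ribosome and is recharged by its B subunits, which mammalian TCTP binds. None of the 6 tested genes passed, at a median log2 fold change of 1.04, or 0.14 with library totals alone. None passed with DESeq2 or limma voom, and none had an unadjusted edgeR p under 0.05. Without anchor cell replicate 1, 5 rose, where 966 of 13270 tested genes did. The B subunit gene eef-1B.2 had 7.25, 183 and 105 CPM in anchor cells and 29.7, 27.6 and 23.0 CPM in whole-body cells, a difference of 1.88 ± 0.86 (SE; edgeR adjusted p = 0.213). eef-1B.1 had 43.7, 177 and 171 CPM in anchor cells and 55.4, 52.6 and 69.6 CPM in whole-body cells. In both B subunit genes, anchor cell replicate 1 lay below all whole-body libraries. This was not so for tct-1. The A subunit genes eef-1A.1 and eef-1A.2, near-identical and so uncertain one by one, differed by 1.10 ± 0.54 and 0.98 ± 0.45. eef-1G, for the G subunit, differed by 0.82 ± 0.40 and eef-2, for the translocation factor, by 0.29 ± 0.41 (SE; edgeR adjusted p = 0.248 and 0.726). With library totals alone eef-1G and eef-2 came out below 0.

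Among 10 tested genes of initiation factor 4E and its partners, which select mRNAs for translation, none passed, at a median of 0.74, which turned to -0.12 with library totals alone. Unadjusted p values were under 0.05 for 3 higher and 2 lower genes. DESeq2 and limma voom called 1 rise, and limma voom with sample weights 1 rise and 1 fall. Leaving out anchor cell replicate 1 gave 3 rises and 1 fall, where 966 of 13270 tested genes rose and 1156 fell. inf-1 had 1336, 1163 and 1327 CPM in anchor cells and 910, 1001 and 738 CPM in whole-body cells. The groups did not overlap and differed by 0.53 ± 0.35 (SE; edgeR adjusted p = 0.403). The poly(A)-binding protein gene pab-1 differed by 0.25 ± 0.42 (SE; edgeR adjusted p = 0.775). Both came out below 0 with library totals alone.

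The TOR and Rheb list held no gene past the threshold among 16 tested, with a median of 0.42, which turned to -0.46 with library totals alone and -0.09 with limma voom, and was below 0 also with sample weights, the filter of 10 CPM and the replicate number as a term. One gene was lower, and none higher, at p under 0.05 before adjustment, and neither DESeq2 nor limma voom called any. Leaving out anchor cell replicate 1 gave 2 rises, of aak-2 and mlst-8, where 966 of 13270 tested genes rose. The TOR kinase gene let-363 had 152, 44.3 and 134 CPM in anchor cells and 120.1, 124 and 113 CPM in whole-body cells. Its log2 fold change was -0.11 ± 0.48 (SE; edgeR adjusted p = 0.923), with anchor cell libraries on both sides of the whole-body ones. daf-15, for the TOR partner Raptor, differed by 0.05 ± 0.52 (SE; edgeR adjusted p = 0.967), which changed sign in 8 of 17 alternatives. rheb-1, for the GTPase that fly Tctp binds, was low, at 0.597, 0 and 15.99 CPM in anchor cells and 2.30, 3.81 and 3.18 CPM in whole-body cells; it was picked out for that role. A single anchor cell library held nearly all its counts in that group.

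Tubulins, the microtubule subunits, had 3 rises and no falls among 14 tested genes, at a median of 1.44, or 0.54 with library totals alone. At p under 0.05 before adjustment, 7 were higher and 2 lower. DESeq2 called 4 rises and 2 falls, where it gave 798 rises and 1580 falls over 26299 genes. The 3 rises called by limma voom stand beside 412 over 11955 genes. The falls by DESeq2 were mec-7, a touch neuron tubulin gene, at 1.55, 2.05 and 2.74 CPM in anchor cells and 8.26, 8.19 and 10.7 CPM in whole-body cells, and tba-7, which had at most 2.23 CPM in any library. tba-1 reached 359, 920 and 1228 CPM in anchor cells, against 156, 132 and 202 CPM in whole-body cells. tbb-2 had 1559, 3049 and 3481 CPM in anchor cells and 620, 556 and 695 CPM in whole-body cells. The beta tubulin gene ben-1 had 61.9, 92.9 and 65.6 CPM in anchor cells and 18.6, 13.8 and 14.8 CPM in whole-body cells. All 3 were higher in every anchor cell library, by 2.36 ± 0.50, 2.11 ± 0.42 and 2.22 ± 0.46 on the log2 scale (SE; edgeR adjusted p = 0.0381, 0.0307 and 0.0332), close in size to the 2.10 ± 0.56 of tct-1. None of the 3 calls held with library totals alone or after leaving out anchor cell replicate 2 or any 1 whole-body replicate, and only ben-1 held of them without anchor cell replicate 3. With replicate 1 of the anchor cells left out, 7 tubulin genes rose, where 966 of 13270 tested genes did. Tubulin genes are alike in sequence, so reads could be split among them.

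Of 5 tested genes of Polo-like kinases and 14-3-3 proteins, 1 rose and 2 fell. The mitotic kinase gene plk-1 fell to 3.30, 3.58 and 3.32 CPM in anchor cells, against 35.4, 39.2 and 31.4 CPM in whole-body cells, a log2 fold change of -3.37 ± 0.58 (SE; edgeR adjusted p = 0.0194). plk-3 had 0.159, 0.716 and 0.0963 CPM in anchor cells and 17.7, 13.3 and 16.4 CPM in whole-body cells, a fold that is uncertain at so few counts. The 14-3-3 gene par-5 rose to 320.3, 673 and 657 CPM in anchor cells, against 163, 134 and 162 CPM in whole-body cells, by 1.85 ± 0.42 (SE; edgeR adjusted p = 0.0446). ftt-2, the other 14-3-3 gene, had 646, 3076 and 4772 CPM in anchor cells and 1243, 1403 and 839 CPM in whole-body cells and did not pass. None of the 3 calls held when any 1 whole-body replicate was left out, and that of par-5 was lost also without anchor cell replicate 2 or 3, with library totals alone and with upper-quartile scaling. Leaving out anchor cell replicate 1 gave 2 rises and 3 falls, with ftt-2 and plk-2 added to the calls. In that fit 966 of 13270 tested genes rose and 1156 fell.

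Of the cell death genes, 4 of 6 had enough counts to test and none passed, at a median of -1.31. Before adjustment 1 was lower at p under 0.05, and it was a fall by DESeq2, by limma voom and without anchor cell replicate 1. It was the caspase gene ced-3, at 2.79, 0.0512 and 0 CPM in anchor cells and 20.4, 17.0 and 19.9 CPM in whole-body cells (edgeR adjusted p = 0.116). Over all tested genes, DESeq2 gave 1580 falls, limma voom gave 1132, and the fit without anchor cell replicate 1 gave 1156. ced-4, for the caspase activator, differed by 1.15 ± 0.68 (SE; edgeR adjusted p = 0.348). ced-9, for the inhibitor of cell death, and cep-1, the p53 homolog, had at most 16.1 CPM in any library.

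**Figure D4:**
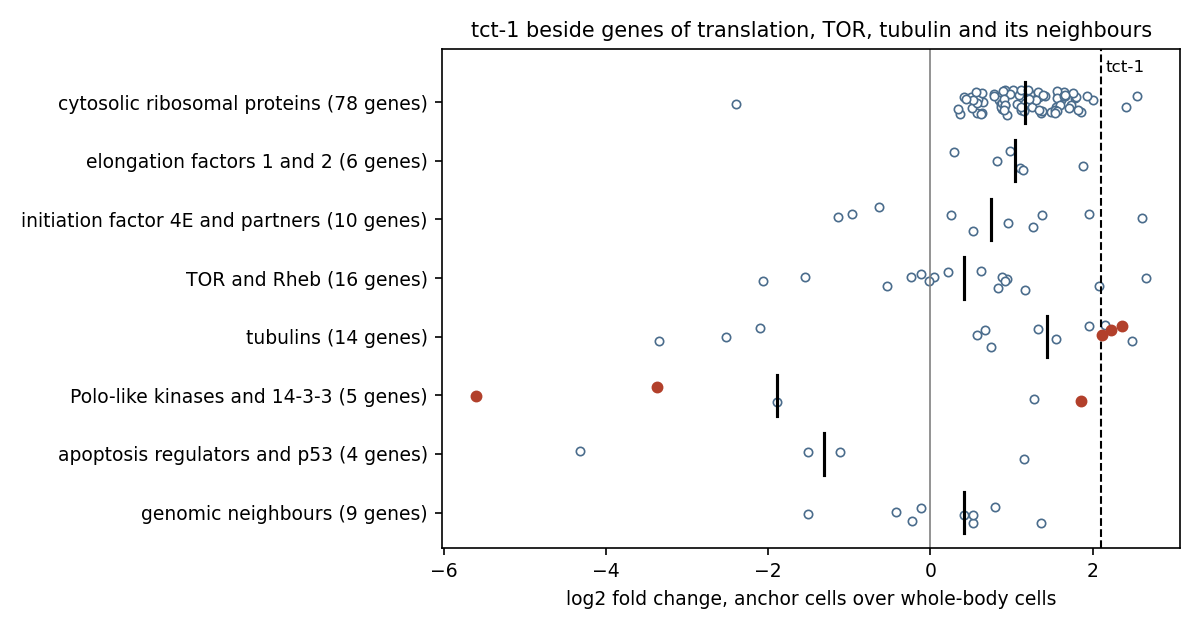
Log2 fold change (x axis, anchor cells over whole-body cells) of each tested gene in 8 lists (rows). Filled points passed edgeR's adjusted p of 0.05, short bars are list medians, and the dashed line is tct-1 at 2.10. Of the 78 ribosomal protein genes, 2 lie beyond that line.

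The genes beside tct-1 on chromosome I gave smaller fold changes. Of the 5 protein-coding genes on each side, 9 had enough counts to test, none passed, and their median log2 fold change was 0.42. That median turned to -0.37 with library totals alone, -0.38 with limma voom, -0.31 with sample weights and -0.41 with the replicate number as a term. No neighbour had an unadjusted p below 0.05, and none was called by DESeq2 or limma voom. With anchor cell replicate 1 left out, rla-0 rose and F29C6.1 fell, where 966 of 13270 tested genes rose and 1156 fell. The gene next upstream, rla-0, codes for the ribosomal stalk protein P0 and ends 94 bases before tct-1 starts. It had 50.7, 488 and 632 CPM in anchor cells and 161, 142 and 154 CPM in whole-body cells. Its anchor cell replicate 1 lay below the whole-body libraries, where that of tct-1 lay above them, and it differed by 1.36 ± 0.71 (SE; edgeR adjusted p = 0.281). Further upstream, pas-5, for a proteasome core subunit, differed by 0.80 ± 0.58, ubc-25, for a ubiquitin-conjugating enzyme, by 0.52 ± 0.40, and F25H2.6 by 0.53 ± 0.51 (SE). F25H2.7 differed by -1.51 ± 1.38, at 4.14 CPM or less in every library. Downstream, the overlapping F25H2.12 differed by -0.23 ± 1.78 at up to 3.30 CPM, and the helicase gene rtel-1 by -0.42 ± 0.59. F29C6.1 differed by 0.42 ± 1.95 and the germ line stem cell gene lst-1 by -0.12 ± 0.67 (SE), and hsp-12.1 was not tested for lack of counts.

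Genes whose levels followed tct-1 most closely across the 6 libraries were found by the root mean square distance between centred log2 CPM profiles, over 3012 other protein-coding genes of at least 20 CPM on average. The 6 nearest lay at 0.128 to 0.184 log2 units, where the median over all genes compared was 1.13, and their Pearson r with tct-1 over the 6 libraries was 0.988 to 0.996. The nearest, Y67H2A.5, had 118.8, 444 and 749 CPM in anchor cells and 97.7, 93.2 and 85.4 CPM in whole-body cells. pas-6 and pbs-3 encode subunits of the proteasome core. pas-6 had 71.8, 328 and 450 CPM in anchor cells and 66.1, 76.3 and 70.4 CPM in whole-body cells. pbs-3 had 122.4, 370 and 453 CPM in anchor cells and 81.3, 96.3 and 70.3 CPM in whole-body cells. The others were nck-1, for an SH2 and SH3 adaptor, rbx-1, for the RING subunit of cullin ubiquitin ligases, and mlc-5, for the essential light chain of non-muscle myosin. None of the 6 passed the test, with log2 fold changes of 1.93 to 2.41 and edgeR adjusted p values of 0.0682 to 0.0770. In each of these 6 genes anchor cell replicate 1 was the lowest of its group, the shape that likeness to tct-1 selects for, and the libraries share their group difference and depth. The median distance of the 66 ribosomal protein genes compared was 0.735.

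**Figure D5:**
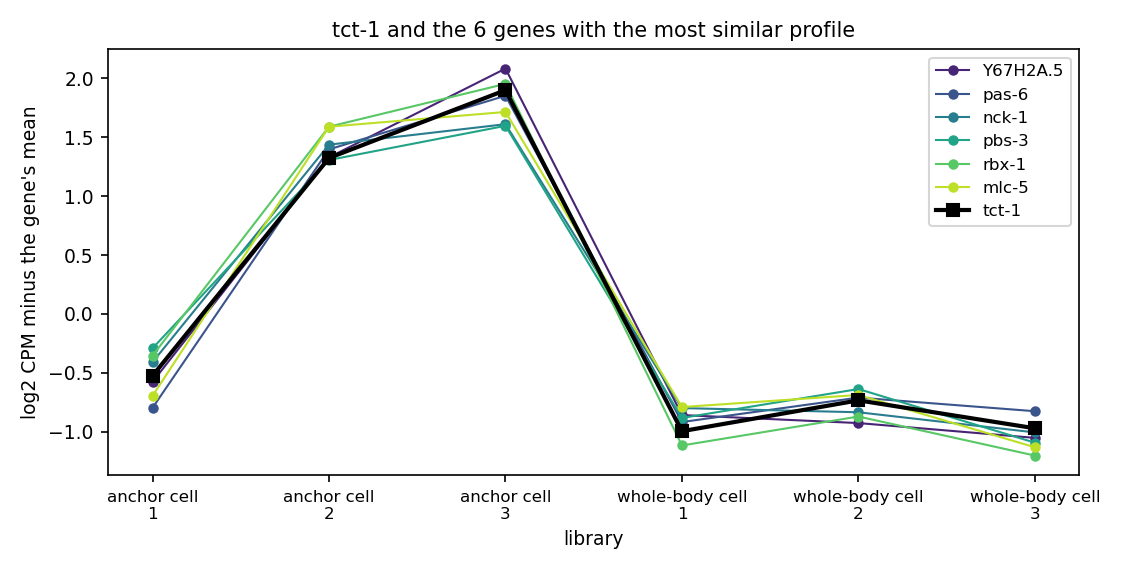
Log2 CPM minus each gene's own mean (y axis) in the 3 anchor cell and 3 whole-body libraries (x axis) for tct-1 (black squares) and the 6 genes nearest to it. All 7 are lowest among anchor cell libraries in replicate 1 and level across the whole-body libraries. Lines only join the values of 1 gene.

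The log2 fold change of tct-1 was toward the upper end of those of all tested genes. Of 837 nuclear protein-coding genes with a mean of at least 100 CPM over all 6 libraries, 82 had a larger log2 fold change than tct-1. In this set 72 genes rose and the median was 0.69. The limit was chosen after the values were seen, and the set was not matched to the level of tct-1. Genes high in anchor cells alone could enter it, so its median and rises are not a neutral background. Over all 11955 tested genes, 1072 had a larger log2 fold change.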

How the data were processed

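RNA was sequenced from 3 anchor cell and 3 whole-body libraries made from 8 to 10 ng of RNA with the Ovation RNA-Seq System, per the labels' protocols. The submitters' processing notes name STAR and HTSeq with build WBcel235, beside Trim Galore, FastQC, DESeq2 1.30.1 and R 4.0.2. What the authors deposited is unnormalized counts by gene name, with 46748 gene rows and 5 summary rows per the file contents. The summary rows were left out of library sizes and tests; reads on no gene were 0.807% to 3.88% and ambiguous reads 0.303% to 0.677% of all counts. Names were matched to Ensembl's annotation of WBcel235, which gave 96.9% of gene rows a length and class.

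Counts were filtered by filterByExpr of edgeR 4.0.16, scaled by TMM (factors of 0.675 to 0.889 for anchor cells, 1.17 to 1.66 for whole-body cells) and tested in R 4.3.3 by its quasi-likelihood F test with robust fitting, for group alone, with p-values adjusted by Benjamini-Hochberg over 11955 genes. SE is the absolute log2 fold change divided by the square root of F. Log2 CPM profiles used a prior count of 2. In simulated counts of this comparison, 200 of the 11955 genes were changed, and 10748 genes passed the filter again. Of changed genes that passed it, the step recovered 5.36%, 59.0% and 87.5% at 4-, 16- and 64-fold, with 6 false calls among 101. Within-library ratios were tested by exact permutation over 20 splits. At these depths 3 counts correspond to 0.0800 to 0.129 CPM. Libraries of a group differed beyond sampling noise (chi-square of 92.7 or more per degree of freedom).

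Alternatives used DESeq2 1.42.0, limma 3.58.1, other scalings and filters, the replicate number as a term, and each library left out. tct-1 was named in full; list members past the threshold were named, or else the 2 with the most counts, with all elongation factors, all genomic neighbours, the 6 nearest profiles and the 3 genes on each side by rank. rheb-1, eef-1B.1 and other members set beside them were added for their role. The gene and the lists were chosen with earlier results of these data known. No sequence is printed.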

Additional observations from a re-analysis of the deposited data

How the results depend on the processing

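The log2 fold change of tct-1 stayed above 0 in all 17 alternatives. It passed the threshold at 1.94 with limma voom and sample weights (adjusted p = 0.0178), at 2.03 with no filter (edgeR adjusted p = 9.86e-05) and at 1.81 with the replicate block (edgeR adjusted p = 0.0249); over single libraries left out it ranged from 1.57 to 2.54. The cause was not tested. Libraries with the same number did not deviate together (correlations 0.053, -0.032 and -0.0032). The labels do not say whether the numbers pair the samples, and correlations over so few libraries cannot decide it. The count of genes past the threshold, 365 as reported, was 2378 with DESeq2, 1544 with limma voom, 1946 with sample weights, 975 with no filter, 728 with the replicate block and 38 to 2122 with single libraries left out (2122 and 152 when anchor cell replicates 1 and 2 were dropped, 108, 132 and 38 when whole-body replicates 1, 2 and 3 were). Rises made up 65.8% of calls as reported, 20.9% with library totals alone, 33.6%, 26.7% and 32.6% with DESeq2, limma voom and sample weights, and 53.6% with the block.

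By counts with no length term tct-1 ranked 117, 31 and 25 in anchor cells, against 160, 162 and 150 in whole-body cells. Its log2 ratio to ribosomal proteins, 1.15 by their sum, was 0.63 by the median over single genes. Of the other named genes, none that passed as reported changed direction. Those that did change sign, all short of the threshold as reported, were, with library totals alone, eef-1G (-0.05), eef-2 (-0.58), daf-15 (-0.68), inf-1 (-0.32), pab-1 (-0.64), rpl-3 (-0.56), ubc-25 (-0.37), F25H2.6 (-0.34), pas-5 (-0.08) and F29C6.1 (-0.17). daf-15 was -0.07 with upper-quartile scaling and with at least 10 CPM in 3 libraries, -0.15 with limma voom, -0.18 with sample weights and with the block, and -0.01 with no filter. F29C6.1 was -3.0 with limma voom, -3.58 with sample weights and -4.20 with the block. Over single libraries left out, let-363 ranged from -0.41 to 0.27, daf-15 ranged from -0.65 to 0.41, pab-1 ranged from -0.0013 to 0.55, F25H2.12 ranged from -3.72 to 0.48, F29C6.1 ranged from -8.12 to 1.00 and lst-1 ranged from -0.65 to 0.36.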
